A study of Mus musculus with 6 samples.

Results

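Neuroglobin (Ngb), cytoglobin (Cygb) and myoglobin (Mb) are 3 of the 18193 genes that carry a single symbol on the array used here, and they are read by 5 of its 45101 probe sets. The members were chosen by their annotation symbol, and every probe set with one of the 3 symbols was taken: 1417996_at and 1417997_at for Ngb, 1423630_at for Cygb, and 1422420_at and 1451203_at for Mb. These symbols were in turn selected on the Ngb signal in these same arrays, since the difference between the groups was already known. Their values in this contrast are therefore given as a description, with no test. RNA of glomeruli, the capillary tufts that filter blood in the kidney, was measured in 3 female mice whose podocytes had lost Vhl and 3 female wild-type littermates, all 6 weeks old. In the first group a podocin-Cre transgene, active in podocytes, excised a floxed Vhl gene, and the other glomerular cells keep theirs. These mice had also been chosen for urinary albumin, measured at 4 weeks, that did not exceed the wild-type average. The parents were homozygous for the floxed allele, and littermates of such a cross would inherit it. The labels call the controls wild-type and do not state whether they carry the floxed allele without Cre.

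Globins are small heme proteins that bind oxygen reversibly. Myoglobin stores oxygen in heart and skeletal muscle, neuroglobin is best known from neurons and retina, and cytoglobin is found in fibroblasts and related cells of many organs. In neuroglobin and cytoglobin a histidine of the protein occupies the heme site where oxygen binds, and both have been studied as scavengers of nitric oxide and reactive oxygen. Vhl marks the hypoxia-inducible factors (HIF) for destruction, so its loss leaves them active in normal oxygen.

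Each probe set has 1 deposited MAS5 signal, a linear value, in every array. The 2% trimmed mean was the same for the 6 arrays. Their median signal was between 96.1 and 107.5 in Vhl-deleted arrays and between 94.6 and 103.1 in wild-type arrays. Precision is limited by how few arrays there are. Vhl itself (1434708_at) read 611, 619 and 606 in Vhl-deleted glomeruli, against 809, 665 and 707 in wild-type glomeruli, and its log2 change of -0.23 did not pass (limma adjusted p = 0.944). Its other probe set (1421071_at) overlapped between the groups at 233, 196 and 216 in Vhl-deleted and 228, 237 and 273 in wild-type glomeruli. Whether either one lies within the excised stretch was not determined. Podocyte markers were present in every array. Of the 24 tested, 19 were negative (median change -0.24), and their summed signal was 167890 to 202850 in Vhl-deleted arrays and 186140 to 238700 in wild-type arrays. The 26 tubule markers were all positive (median change 0.46), and they summed to 162670 to 256880 in Vhl-deleted arrays and 68547 to 209150 in wild-type arrays. By limma, 0 members of either marker list passed, where 0.0807% of all genes tested did. At an unadjusted p under 0.05 were 5 podocyte markers and 0 tubule markers. Immune cell markers were positive in 10 of 11 cases (median 0.56; 6 at an unadjusted p under 0.05, as were 4.92% of all genes tested), with sums of 9604 to 14014 in Vhl-deleted and 5732 to 8237 in wild-type arrays that do not overlap, and 0 passed. Wild-type replicate 3 had the lowest tubule sum and the highest podocyte sum, and Vhl-deleted replicate 3 had the highest tubule sum and the lowest podocyte sum.

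Ngb was the globin with far more signal in Vhl-deleted glomeruli. Its brighter probe set, 1417996_at, read 2929.8, 3119 and 2414 in Vhl-deleted replicates 1, 2 and 3, against 216, 172 and 318 in wild-type replicates 1, 2 and 3. The lowest Vhl-deleted array stood 7.59-fold above the highest wild-type array, and the 9 possible ratios of a Vhl-deleted to a wild-type array ran from 7.59 to 18.2. The group means were 2821 ± 365 in Vhl-deleted and 235 ± 75.1 in wild-type glomeruli (SD, n = 3 each), a ratio of 11.98. A change here is the mean of log2(signal + 28) in Vhl-deleted arrays minus that in wild-type arrays. On that scale Ngb differed by 3.46 (SE 0.26), the second highest of the 11159 genes tested, after Egln3. Leaving out any array gave between 3.28 and 3.68. In bulk RNA, more cells of a type and more RNA per cell cannot be told apart.

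The dimmer Ngb probe set, 1417997_at, also separated the groups. It read 1324, 1193 and 977 in Vhl-deleted arrays, against 72.5, 54.6 and 111 in wild-type arrays, so every Vhl-deleted array was again above every wild-type array. Its change was 3.50 (SE 0.25). Its wild-type mean of 79.3 ± 28.7 (SD, n = 3) lay below the filter level, so it passed the filter through the Vhl-deleted arrays. No ratio of its group means is therefore given, and the size of its change is uncertain. The 2 probe sets ordered the wild-type arrays alike, with replicate 3 highest and replicate 2 lowest. Among the Vhl-deleted arrays both had replicate 3 lowest, while replicate 2 was highest in the brighter and replicate 1 in the dimmer. The brighter probe set read 2.21 to 2.61 times the dimmer one in Vhl-deleted arrays and 2.87 to 3.14 times in wild-type arrays. In wild-type replicates 1 and 2 that ratio rests on a dimmer signal below the filter level. Some Ngb signal was present in wild-type glomeruli, where the brighter probe set was above the filter level of about 96.4 in each array and the dimmer one in replicate 3.

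**Figure D1:**
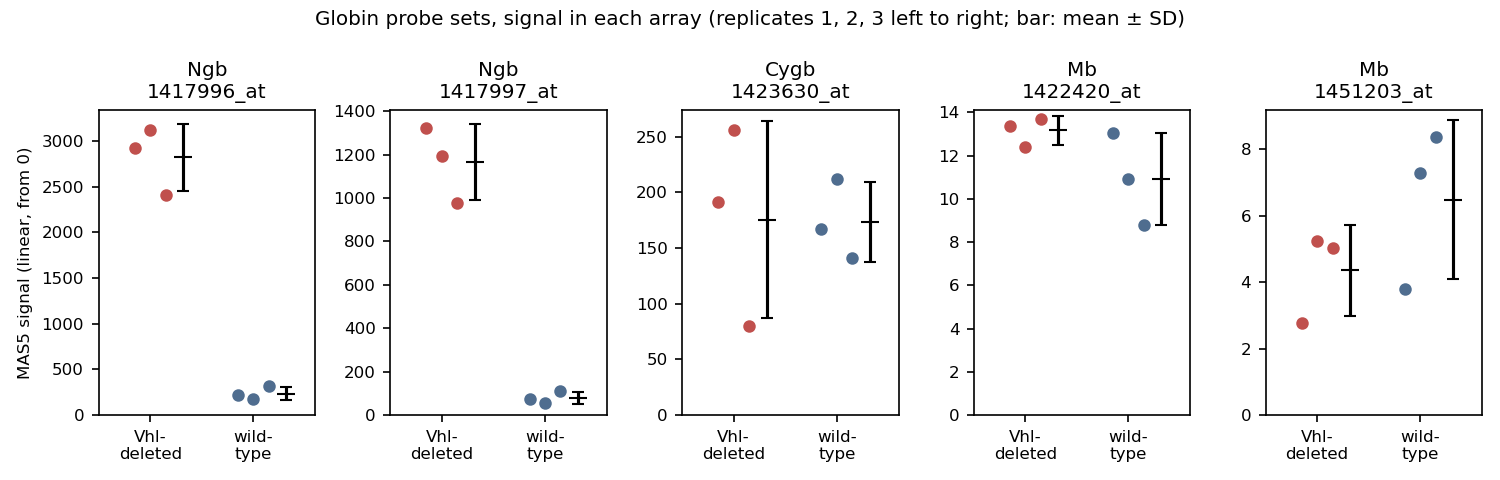
MAS5 signal of each globin probe set on a linear axis from 0, with the 3 Vhl-deleted arrays left of the 3 wild-type arrays (points) and the group mean ± SD (bars). The Ngb groups lie apart on both probe sets, with the brighter at 2414 to 3119 in Vhl-deleted and 172 to 318 in wild-type arrays, while the groups of Cygb and of Mb overlap.

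Replicate 3 of each group stood apart in podocyte markers. Ngb was highest among wild-type arrays in replicate 3, where the mean podocyte marker level was 12.65 on the log2 scale, against 12.25 and 12.26 in replicates 1 and 2. It was lowest among Vhl-deleted arrays in replicate 3, where that mean was 12.02, against 12.29 and 12.22 in replicates 1 and 2. Set against the podocyte mean of its own array, a calculation chosen after the values were seen, Ngb stood at -0.76, -0.60 and -0.77 in Vhl-deleted and at -4.32, -4.62 and -4.21 in wild-type replicates 1, 2 and 3. The difference between the groups was then 3.67 (SE 0.13). The part of podocyte markers in the Ngb values was not tested. Of 20 markers of neurons, the cells Ngb is best known from, 3 passed the filter, and the list summed to 1025 to 1418 in Vhl-deleted arrays and 1184 to 1347 in wild-type arrays. Of these, Uchl1, a neuronal ubiquitin hydrolase gene, was at 0.61 and Stmn2, a microtubule regulator gene of growing axons, at -0.23, and neither passed (limma adjusted p = 0.944). The part of such cells in the Ngb values was not tested.

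**Figure D2:**
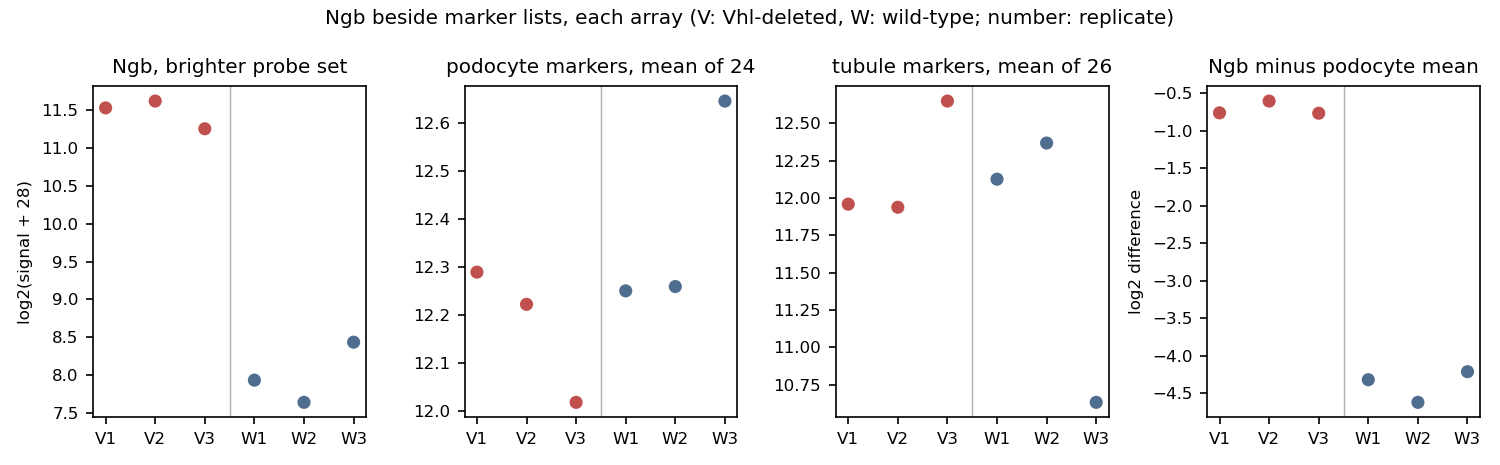
Each array's log2(signal + 28) for Ngb, the mean over 24 podocyte markers, the mean over 26 tubule markers, and Ngb minus the podocyte mean, with Vhl-deleted arrays (V) left of wild-type arrays (W). Ngb minus the podocyte mean lies between -0.77 and -0.60 in Vhl-deleted and between -4.62 and -4.21 in wild-type arrays; the vertical axes do not start at 0.

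Cygb showed no separation of the groups. Its single probe set read 191, 256 and 80.0 in Vhl-deleted replicates 1, 2 and 3, against 167, 212 and 141 in wild-type replicates 1, 2 and 3. The highest and the lowest value both came from Vhl-deleted arrays, so the wild-type range lay inside the Vhl-deleted range. The mean signals were 176 ± 88.9 in Vhl-deleted and 173 ± 36.1 in wild-type glomeruli (SD, n = 3 each), a ratio of 1.01. The log2 change was -0.08 with an SE of 0.44, and 67.4% of the genes tested had a larger change in size. The sign of this value depended on which array was left out: without Vhl-deleted replicate 3 the change was 0.33. Without Vhl-deleted replicate 2 it was -0.37, and without wild-type replicate 2 it was 0.06. The direction of a Cygb difference was not detectable with arrays of this spread.

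Markers of cells that make cytoglobin were set beside these values. Of 9 fibroblast markers tested, 4 were positive and 5 negative (median -0.02), and the 16 on the array summed to 24084 to 27276 in Vhl-deleted and 24500 to 32052 in wild-type arrays. Pdgfra, which encodes a receptor for platelet-derived growth factor, was at -0.35 and the matrix proteoglycan gene Dcn at 0.32 (limma adjusted p = 0.944 each). Without wild-type replicate 3 they were at -0.13 and 0.02. Of 14 mesangial and smooth muscle markers tested, 13 were positive (median 0.15), with sums of 105960 to 109840 in Vhl-deleted and 88535 to 102540 in wild-type arrays, which do not overlap. The contractile genes Tagln (0.53) and Myl9 (0.40) were among them. By limma 0 members of these lists passed, where 0.0807% of all genes tested did. At an unadjusted p under 0.05 were 2 mesangial (14.3%) and 0 fibroblast markers, against 4.92% of all genes tested. Whether these cells bear on the Cygb signal was not tested.

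Mb had almost no signal in either group. Probe set 1422420_at read 13.4, 12.4 and 13.7 in Vhl-deleted arrays, against 13.0, 10.9 and 8.77 in wild-type arrays. Probe set 1451203_at read 2.78, 5.25 and 5.02 in Vhl-deleted arrays, against 3.80, 7.28 and 8.36 in wild-type arrays. Every value lay below the pseudocount of 28, and neither probe set passed the filter. The brighter one changed by 0.08 and the dimmer one by -0.09, so they opposed each other, and with both below the filter no ratio is drawn from them. Markers of striated muscle were as scarce: 1 of 25 passed the filter, the desmin gene Des, which smooth muscle and mesangial cells also express. The list summed to 1836.5 to 2040.4 in Vhl-deleted and 1788 to 2192 in wild-type arrays. Of the 3 globins, Ngb and Cygb passed the filter, and among these the arrays of the groups lay apart for Ngb; over all genes tested this held for 10.7%, and for 5.04% with Vhl-deleted above.

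The genes whose profile over the 6 arrays came closest to that of Ngb, measured as the root mean square distance of gene-centred log2 values, were Zbtb8b (0.37), AA467197 (0.50), Pcsk6 (0.62), Egln3 (0.65) and Ppp1r3c (0.72). Zbtb8b encodes a zinc finger protein, Pcsk6 a proprotein convertase, Egln3 a prolyl hydroxylase of HIF, and Ppp1r3c a subunit that directs protein phosphatase to glycogen. Each of the 5 was lowest among Vhl-deleted arrays in replicate 3, as Ngb was. Genes were picked here by closeness to a globin in these same arrays, so a shared order of arrays is partly built in. Egln3 read 5098, 4792 and 3678 in Vhl-deleted arrays, against 144, 171 and 149 in wild-type arrays. Zbtb8b read 590.13, 676 and 465 in Vhl-deleted arrays, against 31.9, 44.7 and 25.6 in wild-type arrays. Its wild-type values all lay below the filter level of about 96.4, so Zbtb8b passed the filter through the Vhl-deleted arrays. The size of its change is not settled, at 2.32 to 4.06 over 19 alternatives. In wild-type arrays Pcsk6 had the same order as Ngb (1836 in replicate 3, 1275 in replicate 1, 1261 in replicate 2). AA467197 was lowest in replicate 2, as Ngb was, but highest in replicate 1. Egln3, Zbtb8b and Ppp1r3c were highest in replicate 2. For Cygb the closest profiles were Klf12 (0.12), Shoc2 (0.20), Cep290 (0.20), Gm20199 (0.20) and Cklf (0.20), all with Vhl-deleted replicate 3 lowest of the 6 arrays and Vhl-deleted replicate 2 above replicate 1. For Mb they were Tmem9b, Gga3, Becn1, Cdc26 and Gmps, at 0.014 to 0.028, but the Mb profile itself was nearly flat, with a root mean square of 0.063.

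**Figure D3:**
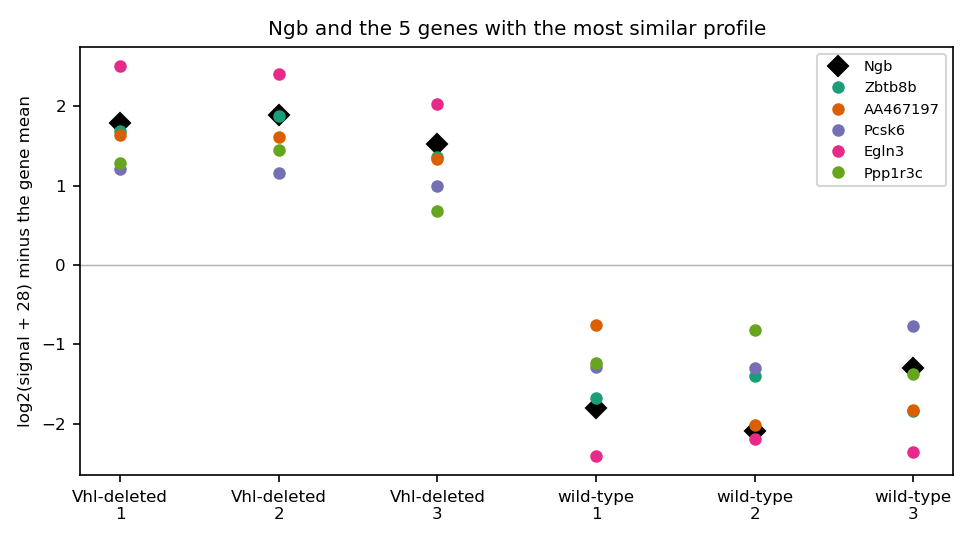
Gene-centred log2(signal + 28) of Ngb (diamonds) and the 5 genes of most similar profile (circles) in each array, Vhl-deleted left of wild-type. All 6 genes have their lowest Vhl-deleted point in replicate 3, and the change of Egln3 (4.63) exceeds that of Ngb (3.46). The 5 genes were picked by closeness to Ngb in these arrays, so a shared order is partly built in.

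HIF binds a short core, ACGTG or GCGTG, in the promoters and enhancers of its targets. These letters were searched for on both strands in the RefSeq windows of 300 bases around each start (250 before, 50 after, mouse build GRCm38.p6), where an ACGTG on one strand may overlap one on the other. Of the 3 globins Mb matched windows, 3 of them, and none held the core. Of the 5 genes closest to Ngb all had a window, and 4 held the core: Zbtb8b 1, AA467197 4, Egln3 1 and Ppp1r3c 4. Over all 32851 windows 43.8% held it. Shown 5′ to 3′ on the strand of the gene is an Mb window (chr15:77022738-77023037, minus strand), as the globin with an entry. Also shown are those of Zbtb8b (chr4:129440769-129441068, minus), Egln3 (chr12:54203825-54204124, minus) and Ppp1r3c (chr19:36736555-36736854, minus), which were among the 5 genes closest to Ngb in profile. Pcsk6, without the core, and AA467197 are not shown. Capitals mark the core.
Mb: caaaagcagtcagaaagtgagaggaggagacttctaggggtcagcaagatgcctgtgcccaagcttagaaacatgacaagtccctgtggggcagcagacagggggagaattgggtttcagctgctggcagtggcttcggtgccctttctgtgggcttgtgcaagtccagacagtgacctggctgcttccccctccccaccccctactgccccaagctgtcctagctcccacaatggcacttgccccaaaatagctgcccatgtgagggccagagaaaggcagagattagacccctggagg
Zbtb8b: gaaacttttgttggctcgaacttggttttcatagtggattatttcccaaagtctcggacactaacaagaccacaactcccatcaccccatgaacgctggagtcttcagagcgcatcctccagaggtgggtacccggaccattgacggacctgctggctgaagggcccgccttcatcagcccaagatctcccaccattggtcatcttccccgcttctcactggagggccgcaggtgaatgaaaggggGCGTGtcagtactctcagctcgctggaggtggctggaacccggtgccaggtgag
Egln3: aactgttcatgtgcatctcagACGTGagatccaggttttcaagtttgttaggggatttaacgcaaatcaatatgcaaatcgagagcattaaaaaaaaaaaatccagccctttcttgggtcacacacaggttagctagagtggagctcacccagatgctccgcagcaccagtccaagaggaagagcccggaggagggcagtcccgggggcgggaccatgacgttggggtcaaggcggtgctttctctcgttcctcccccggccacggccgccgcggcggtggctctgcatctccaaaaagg
Ppp1r3c: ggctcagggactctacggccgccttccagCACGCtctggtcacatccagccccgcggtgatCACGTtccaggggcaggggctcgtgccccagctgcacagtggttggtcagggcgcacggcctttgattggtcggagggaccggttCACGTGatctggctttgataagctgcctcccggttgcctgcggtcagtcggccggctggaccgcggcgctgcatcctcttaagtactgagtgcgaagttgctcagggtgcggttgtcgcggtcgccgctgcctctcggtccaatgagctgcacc
The match nearest a start was that of Zbtb8b, whose first base lay at -4. The Egln3 match lay at -229, and those of Ppp1r3c at -221, -189, -104 and -103, the last pair overlapping. A match in a window is a description of its letters and no evidence of binding.

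Ngb and Cygb were set beside HIF targets other than globins, a list chosen with earlier results known. Of the 47 targets tested, 1 (Egln3) had a larger change than Ngb, and 3 had a change below that of Cygb. The place of Ngb is a description, since Ngb was selected on this difference. That of Cygb is not settled, since its change ran from -0.37 to 0.33 on leaving out 1 array. By limma 5 of the 47 rose and 0 fell, where 0.0717% of all genes tested rose and 0.00896% fell, 0.0807% together. They were Egln3 (4.63, adjusted p = 9.74e-05), Ppp1r3c (2.28, adjusted p = 0.0354), the glycolytic enzyme genes Pfkl (1.24, adjusted p = 0.00595) and Pkm (1.05, adjusted p = 0.0172), and the lactate transporter partner gene Bsg (1.06, adjusted p = 0.0354). The median change of the list was 0.49, against 0.0043 over all genes, 43 of the 47 were positive, and the groups did not overlap for 28 (59.6%, against 10.7% of all genes). The calls changed with the arrays used: 1 pathway gene, Egln3, passed without wild-type replicate 1 or 2 or without Vhl-deleted replicate 1 or 2, 3 passed without Vhl-deleted replicate 3, and 7 passed without wild-type replicate 3. Over these leave-outs the change ran from 0.98 to 1.11 for Bsg, 1.21 to 1.26 for Pfkl, 1.01 to 1.09 for Pkm and 2.12 to 2.51 for Ppp1r3c. Among 19 oxygen sensing genes tested, which include Vhl and the HIF subunits and hydroxylases, Egln3 rose, 0 fell, and the median was -0.02.

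**Figure D4:**
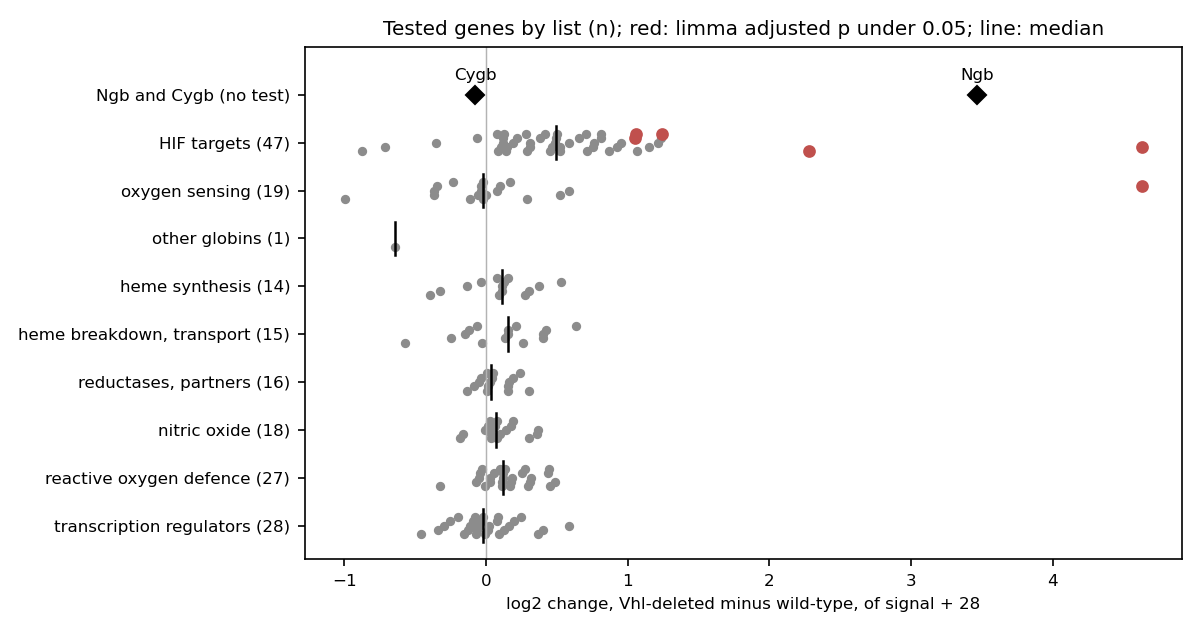
Log2 change, Vhl-deleted minus wild-type, of Ngb and Cygb (diamonds) and of the tested genes of each list (circles, n in brackets), with red for a limma adjusted p under 0.05 and a line at the list median. Ngb at 3.46 lies beyond every listed gene but Egln3, and Cygb at -0.08 lies among the genes that did not pass.

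Genes that make and break heme, reduce globins or share their substrates did not pass the test. Over the 7 lists of such genes, of transcription regulators reported for globin genes and of other globins (Hbb-b2), 118 different genes were tested by limma. Of these 0 rose or fell, where 0.0807% of all genes tested did, so the count says little about them. At an unadjusted p under 0.05 were 4 (3.39%, against 4.92% of all genes). The median change of the 118 genes was 0.08. The lowest p among them was that of Hmox1, the inducible heme oxygenase, which read 479, 333 and 345 in Vhl-deleted arrays, against 251, 255 and 203 in wild-type arrays, a change of 0.64 (SE 0.18, adjusted p = 0.738). The 14 heme synthesis genes tested had a median of 0.11, among them the protoporphyrinogen oxidase gene Ppox at -0.33 and Clpx, a mitochondrial chaperone that acts on the first enzyme of heme synthesis, at 0.53, which was 0.14 without wild-type replicate 3. The 15 genes of heme breakdown and transport had a median of 0.15, with Lrp1, a receptor for heme bound to hemopexin, at 0.21. Hmox2, the constitutive heme oxygenase gene, averaged 2138 ± 382 in Vhl-deleted and 1922 ± 76.9 in wild-type arrays (SD, n = 3 each).

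Cytochrome b5 and its reductases return oxidised cytoglobin to the form that binds oxygen. On the brightest probe set of each of these genes, the groups overlapped except for Cyb5r2. Over all genes tested the groups lay apart for 10.7%, so these overlaps say little about the family. Cyb5r3 averaged 8450 ± 460 in Vhl-deleted and 8437 ± 817 in wild-type arrays, Cyb5a averaged 12329 ± 1495 in Vhl-deleted and 11048 ± 1242 in wild-type arrays, Cyb5r4 averaged 1809.9 ± 83.2 in Vhl-deleted and 1993 ± 167 in wild-type arrays, and Cyb5b averaged 4174 ± 669 in Vhl-deleted and 3758 ± 737 in wild-type arrays (SD, n = 3 each). Cyb5r2 had little signal, 2.53, 5.13 and 3.00 in Vhl-deleted against 45.7, 30.7 and 47.3 in wild-type arrays, so the groups lay apart, but it did not pass the filter and was not tested. Of the 16 tested reductases and reported partners of neuroglobin the median was 0.03, with the saposin precursor gene Psap at 0.24 and the small GTPase gene Rac1 at 0.16. Among 18 nitric oxide genes the median was 0.07. The endothelial synthase gene Nos3 averaged 726 ± 135 in Vhl-deleted and 721 ± 30.2 in wild-type arrays, the neuronal synthase gene Nos1 averaged 155 ± 36.3 in Vhl-deleted and 151 ± 61.5 in wild-type arrays (SD, n = 3 each), and the inducible synthase gene Nos2 did not pass the filter. The dimethylarginine hydrolase gene Ddah2 (0.18) and the synthase-binding protein gene Nosip (-0.16) had the lowest p of that list, and were at 0.07 and -0.07 without wild-type replicate 3. Among 27 genes of defence against reactive oxygen the median was 0.12, with the secreted peroxidase gene Gpx3 at 0.44 (0.19 without wild-type replicate 3) and Keap1, the inhibitor of the oxidative stress factor NRF2, at -0.33. Among 28 regulators the median was -0.02, with the calcineurin-dependent factor gene Nfatc2 at 0.59 and the coactivator gene Ep300 at -0.30.

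The remaining globins of the array showed no separation of the groups. They are read by 12 probe sets with a single symbol, for 7 genes, and in 0 of these probe sets did the groups lie apart. Over all genes tested the groups lay apart for 10.7%, so a count of 0 in 12 says little about these globins. For 10 of the 12 the mean was below the filter, with signals from 0.446 to 98.97; they include the embryonic genes Hbb-y, Hbb-bh1 and Hba-x and Adgb, the androglobin gene known from testis, which read 23.9, 2.84 and 31.1 in Vhl-deleted arrays, against 5.51, 0.89 and 0.45 in wild-type arrays. The probe set 1427866_x_at of Hbb-b2, an adult beta-globin gene of red cells, read 124, 143 and 98.2 in Vhl-deleted arrays, against 409.8, 132 and 150.5 in wild-type arrays, a change of -0.64 (limma adjusted p = 0.944) that was -0.19 without wild-type replicate 1. Its other probe set changed by 0.02, and red cell globin genes have near-identical copies that such probe sets can share. A further 4 probe sets are assigned to several adult alpha-globin or beta-globin genes at once, and they were bright in every array. The beta one read 22542, 20257 and 21391 in Vhl-deleted arrays, against 23986, 24556 and 20709 in wild-type arrays. The 3 alpha ones had ratios of mean signals between 0.683 and 1.03. Of the 5 erythroid markers tested, 2 were positive and 3 negative, and 0 passed by limma, where 0.0807% of all genes tested did. At an unadjusted p under 0.05 were 0 of them, against 4.92% of all genes tested. Slc25a37, the mitochondrial iron importer gene, was at -0.37 (limma adjusted p = 0.944). The 13 erythroid markers on the array summed to 1811.6 to 1908.5 in Vhl-deleted and 1988.9 to 2384 in wild-type arrays, which do not overlap. The largest part of this sum was Slc25a37, which averaged 775 in Vhl-deleted and 1001 in wild-type arrays. The sum leaves out the 4 bright probe sets shared by several globin genes, whose groups overlapped. The part of red cells in the globin values was not tested.

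**Figure D5:**
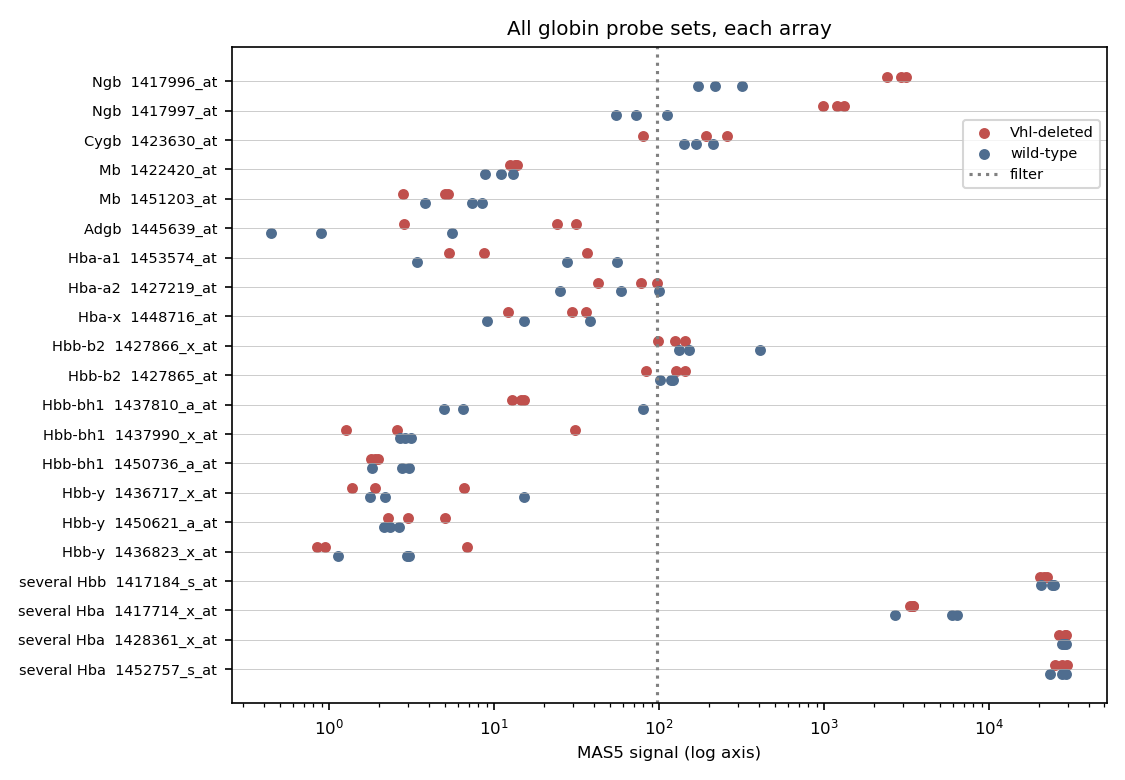
MAS5 signal on a log axis of every globin probe set, with the 3 Vhl-deleted arrays (red) above the 3 wild-type arrays (blue) in each line and the filter level dotted; levels are to be read within a line, not between probe sets. The groups lie apart in the lines of the 2 Ngb probe sets, and the 4 probe sets shared by several hemoglobin genes are bright in both groups.

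Genes next to the globin genes did not pass the test. The 5 nearest protein-coding genes on each side were taken from the order of genes in the RefSeq table. Around Ngb 5 of the 10 neighbours were tested, with changes from -0.28 to 0.26. Pomt2, on one side, averaged 269 in Vhl-deleted and 281 in wild-type arrays, and Gstz1, beyond it, averaged 1239 in Vhl-deleted and 1136 in wild-type arrays. On the other side Tmem63c and Zdhhc22 did not pass the filter. Around Cygb 6 neighbours were tested, with changes from -0.24 to 0.30, Rhbdf2 and St6galnac2 among them. Around Mb 5 were tested, with changes from -0.27 to 0.09, among them Zfp647, Rbfox2 and 1110038F14Rik. By limma 0 of the 16 tested neighbours passed, where 0.0807% of all genes tested did, and the lowest adjusted p was 0.944. At an unadjusted p under 0.05 were 0 of them, against 4.92% of all genes tested. With so few neighbours, counts of 0 say little about these genes.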

How the data were processed

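Glomeruli were collected with magnetic beads, and their RNA was read on 1 Affymetrix array per mouse, 3 Vhl-deleted and 3 wild-type, and the labels call these biological replicates. The deposited values are intensities on a linear scale, made with MAS5 per the submitters' processing notes, which give no version. Of 45101 probe sets, 64 are controls, 34945 had 1 symbol, 932 several and 9160 none; 34741 were matched by Entrez number to RefSeq, used for names and gene order.

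Values were taken as log2(signal + 28), the pseudocount being the 25th percentile, so that the change of a dim gene understates its ratio. The upper 50% of probe sets by mean log2 value over all 6 arrays was kept, and the brightest kept one stood for a gene, leaving 11159 genes. All 11159 genes, Ngb and Cygb included, were fitted with limma 3.58.1 in R 4.3.3 (lmFit, eBayes with an intensity trend, Benjamini-Hochberg adjustment, threshold 0.05), and the fit was tested on simulated data. Tests are given for genes other than Ngb, Cygb and Mb. SEs of these globins come from the SDs of both groups. Of all genes tested 8 rose and 1 fell (9 called), and 549 had an unadjusted p under 0.05.

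The members and lists were chosen with earlier results of these data known. The rule for named genes takes the globins and Vhl, every called member of a list (with none called, the pair with the smallest p), the 5 genes closest in profile to each globin, the 2 nearest neighbours on each side, the other globins, and the cytochrome b5, heme oxygenase and nitric oxide synthase genes. Alternatives changed the scaling, pseudocount, filter, choice of probe set, variance model, array weights and threshold, added a replicate block or a tubule covariate, and left out each array.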

Additional observations from a re-analysis of the deposited data

How the results depend on the processing

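The Ngb change lay between 3.14 and 3.68 over 15 alternatives and moved by more than the replicate SD under one of them, the pseudocount at the median of all values (3.14). It was 3.66 with the tubule covariate. The Cygb change stayed within 1 SD of its value under all 13 alternatives, from -0.37 to 0.33, and was also positive relative to the podocyte mean (0.13). The Mb change was 0.26 with a pseudocount of 1, -0.0041 as the mean of both probe sets and -0.0906 on the dimmer one. The count of genes called, 9, was 1 with the replicate number as a block, 36 with the tubule covariate, 33 with array weights, 18 at a threshold of 0.1 and 15 with the filter on the mean of linear signals, added after the data were seen; leaving out 1 array gave 1 to 12. The count of pathway genes called, 5, was 1 with the replicate block, 12 with the tubule covariate, 12 with array weights and 3 without the intensity trend; leaving out 1 array gave 1 to 7. The cause of these shifts was not tested. The neighbour count was 0 under all 20 alternatives. Whether equal replicate numbers pair the mice was not determined. Deviations from the group means correlated at -0.02, -0.41 and -0.51 for same-numbered arrays, and at -0.38 to 0.58 for differently numbered ones. With 3 arrays per group such deviations are tied to one another, so these values cannot show whether mice were paired. Of the named genes that had not passed, Ppox turned to 0.0298 with the mean of probe sets, and Des (-0.09) turned to 0.0120 with the tubule covariate and to 0.0869 without wild-type replicate 3, its leave-out range being -0.195 to 0.0869. AA467197 (3.06, limma adjusted p = 0.0503) passed under 8 of 19 alternatives. It read 365, 359 and 290 in Vhl-deleted arrays, against 46.7, 3.27 and 7.69 in wild-type arrays, all of the latter below the filter level. AA467197 thus passed the filter through the Vhl-deleted arrays. Its change was 4.80 with a pseudocount of 1 and 1.89 with the pseudocount at the median. Neither its size nor its pass count is therefore settled. Signal over background limits Mb and most of the other globins.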
